A study of Homo sapiens with 12 samples.

Results

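The galectins described here are 5 genes, LGALS1, LGALS3, LGALS3BP, LGALS8 and LGALS9, out of 24559 gene symbols that the count table gives once its transcripts are summed per symbol. They were chosen by their summed counts in these same 12 libraries, across the 6 groups, so their levels and fold changes are given as a description, without a test. The libraries hold polysome-associated RNA, that is, RNA recovered from the ribosome-rich fractions of a sucrose gradient, from 3 established triple-negative breast cancer (TNBC) lines. Each of 6 groups has 2 libraries: MDA-MB-231 and SUM159 cells with an empty vector (EV) or with knockdown (KD) of TRMT112, and BT549 cells with EV or with TRMT112 overexpression (OE). TRMT112 is an activating partner of several RNA and protein methyltransferases. KD used GIPZ short hairpin vectors against a non-silencing control, and OE used the pReceiver-M02 plasmid with or without the TRMT112 coding sequence. Selection used puromycin for the KD constructs and G418 for the OE constructs. The cells of every group were given cycloheximide, which holds ribosomes on mRNA, for a short time before lysis and during it. Each KD or OE line is compared with the EV line of the same cells, so the vector system and the selecting antibiotic differ between the KD lines and BT549. The culture medium also differed between the 3 lines. The labels do not say that the libraries of a group came from separate cultures, so the spread between them may be technical. With 2 libraries in each group, lack of overlap between groups is a weak criterion, and its share over all genes is not given here.

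Galectins are small lectins that bind galactose-containing glycans on cell-surface and matrix glycoproteins. They are made on free ribosomes in the cytosol and leave the cell without a signal peptide, and several of them also recognise glycans exposed inside the cell when endosomes or lysosomes are damaged. Galectin-1 (LGALS1) is a dimer with one kind of binding domain. Galectin-3 (LGALS3) joins its binding domain to a flexible tail that allows it to oligomerise. Galectin-8 (LGALS8) and galectin-9 (LGALS9) carry a pair of different binding domains on a linker. LGALS3BP is no lectin. It is a heavily glycosylated secreted protein that galectins bind, and its gene is known to be induced by interferon, as is LGALS9.

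TRMT112 followed the labels in each line. Its level was 169.1 ± 6.19 CPM in MDA-MB-231 EV against 72.1 ± 2.42 in KD, where CPM are counts scaled to library size with TMM factors and values are mean ± SD with n = 2, as for all levels that follow. In SUM159 the EV level of 269.7 ± 6.91 CPM compared with 159.1 ± 6.19 in KD. In BT549 the OE level of 180.0 ± 1.000 CPM compared with 128.9 ± 0.340 in EV. All levels are shares of a library. The paper reports smaller polysome peaks in both KD lines and larger ones in BT549 OE. Amounts of an mRNA on polysomes per cell therefore cannot be read from these levels. Library totals lay between 22954226 and 27434677 expected counts, and libraries of 1 group differed by a median of 0.081 to 0.099 on the log2 scale. Of the marker genes checked, VIM, a mesenchymal filament gene, lay between 593.5 and 1868 TPM in every library, where TPM are counts scaled to transcript length as well as library size. PGR stayed at or below 0.239 TPM, ESR1 was not analysed here, and ERBB2 lay between 26.5 and 55.7 TPM. The epithelial markers CDH1 and EPCAM stayed at or below 1.44 and 4.00 TPM, and EGFR lay between 8.05 and 30.7 TPM. Of the leukocyte and endothelial markers, PTPRC, LYZ and PECAM1 stayed at or below 0.330, 0.0543 and 1.05 TPM, and CD3E and VWF were not analysed here. CD68, a lysosomal glycoprotein used as a macrophage marker, ranged from 6.18 to 229.4 TPM. KRT8 and KRT18, simple epithelial keratins, had group means of 207.5 to 372.7 and 220.3 to 558.6 TPM in MDA-MB-231 and SUM159, and at most 0.552 TPM in BT549. The table lists 0 transcripts without a count in all 4 BT549 libraries, so genes silent in BT549 could not be analysed in the other lines.

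The 250 bases upstream of the annotated start are shown for LGALS3BP and LGALS9, the members with the largest differences in BT549, and for LGALS3, which had a difference of the same direction there. Whether these sequences have a part in the levels was not tested. The sequences are from RefSeq (GRCh38.p14), which held 4 of the 5 members, and they read 5′ to 3′ on the strand of the gene. Both strands were searched for GAAANNGAA, part of the interferon-stimulated response element, and for the STAT-binding GAS motif, TTCNNNGAA, and capitals mark the matches.
LGALS3BP, chr17:78979924-78980173, minus strand: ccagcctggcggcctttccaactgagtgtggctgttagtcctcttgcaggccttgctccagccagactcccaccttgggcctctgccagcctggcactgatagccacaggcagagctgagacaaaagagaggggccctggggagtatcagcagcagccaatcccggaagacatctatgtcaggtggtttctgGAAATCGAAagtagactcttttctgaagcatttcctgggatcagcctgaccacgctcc
LGALS9, chr17:27630938-27631187, plus strand: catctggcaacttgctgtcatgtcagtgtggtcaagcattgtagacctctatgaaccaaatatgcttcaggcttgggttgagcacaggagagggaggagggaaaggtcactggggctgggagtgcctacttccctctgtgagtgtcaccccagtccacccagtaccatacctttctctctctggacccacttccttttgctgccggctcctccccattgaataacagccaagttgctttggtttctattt
LGALS3, chr14:55129002-55129251, plus strand: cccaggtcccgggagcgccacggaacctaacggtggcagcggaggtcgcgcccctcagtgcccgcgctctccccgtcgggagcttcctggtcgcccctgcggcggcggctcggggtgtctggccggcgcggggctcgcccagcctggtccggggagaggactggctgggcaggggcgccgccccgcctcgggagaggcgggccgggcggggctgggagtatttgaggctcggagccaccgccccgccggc
LGALS3BP held GAAANNGAA once, as GAAATCGAA from 58 to 50 bases upstream of the start. LGALS9, LGALS3 and the 3 annotated LGALS8 promoters held no match to it in these windows, and no member's window held TTCNNNGAA. Among 35114 promoter windows of the same length, 6.88% held GAAANNGAA and 6.57% held TTCNNNGAA. LGALS3 held the GC box GGGCGG on either strand 3 times, a motif found in 42.6% of the windows. LGALS3BP held CCAAT once, a motif found in 32.0% of them. Of the 3 LGALS8 windows, 1 held the TATA box TATAAA 2 times on the opposite strand, a motif found in 10.7%. The representative (MANE Select) transcript of LGALS8 does not start at that window. A match is a string of letters, and binding was not measured here.

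LGALS1, which encodes galectin-1, was by far the most abundant member. The gene lies on chromosome 22 (GRCh38, 37675636 to 37679802, plus strand), and its transcript LGALS1-201, with 4 exons and 135 codons, took 99.8% of its counts. Per length of transcript it reached 7214 ± 127 TPM in MDA-MB-231 EV, 6846 ± 362 in SUM159 EV and 10592 ± 10.5 in BT549 EV. Among all symbols its TPM ranked between the first and the sixth in every library.

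In MDA-MB-231, LGALS1 had 1830 and 1874 CPM in the EV libraries and 2364 and 2343 in the KD libraries. In SUM159 it had 1927 and 2102 CPM in EV and 4747 and 4754 in KD. In BT549 it had 3584 and 3551 CPM in EV and 2410 and 2337 in OE. Both KD libraries therefore lay above both EV libraries in each KD line, and both OE libraries lay below both EV libraries. The fitted log2 fold changes, each with its SE, were 0.35 ± 0.03 in MDA-MB-231 KD, 1.24 ± 0.03 in SUM159 KD and -0.59 ± 0.03 in BT549 OE. The SUM159 KD libraries had the highest level of all 6 groups, and MDA-MB-231 EV had the lowest. Across the groups LGALS1 spanned 2.57-fold, the narrowest range of the members. BT549 OE (2374 ± 51.7 CPM) and MDA-MB-231 KD (2353 ± 15.2 CPM) were neighbours in that order whose libraries overlapped.

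LGALS3, which encodes galectin-3, showed the same order of EV and KD or OE in each line at a far lower level. The gene lies on chromosome 14 (55124110 to 55145423, plus strand), and LGALS3-201, with 6 exons and 250 codons, took 99.3% of its counts. In MDA-MB-231 it had 134.1 and 134.4 CPM in EV and 153.1 and 151.7 in KD. In SUM159 it had 17.8 and 17.9 CPM in EV and 38.8 and 35.2 in KD. In BT549 it had 384.5 and 386.4 CPM in EV and 51.5 and 50.4 in OE. No KD or OE library fell within the range of its EV libraries. The share of all genes with the order seen for LGALS1 and LGALS3 is not given here. The log2 fold changes were 0.18 ± 0.04, 1.05 ± 0.06 and -2.92 ± 0.04 in the order given for LGALS1. BT549 EV had 21.6 times the level of SUM159 EV, the highest and the lowest of the 6 groups, and no neighbouring groups overlapped. In BT549 OE the level lay between those of SUM159 KD (37.0 ± 2.57 CPM) and MDA-MB-231 EV (134.3 ± 0.163 CPM). CD68, named above as a macrophage marker, moved with LGALS3 in BT549, from 163.0 TPM in EV to 6.39 TPM in OE as group means. The other leukocyte markers in the table were near 0 in both groups, with PTPRC at 0.244 and 0.0602 TPM and LYZ at 0 and 0.0250 TPM. In SUM159, where LGALS3 was higher in KD, CD68 was lower, with group means of 29.7 TPM in EV and 22.2 in KD. In MDA-MB-231 the CD68 means were 220.5 TPM in EV and 225.7 in KD.

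**Figure D1:**
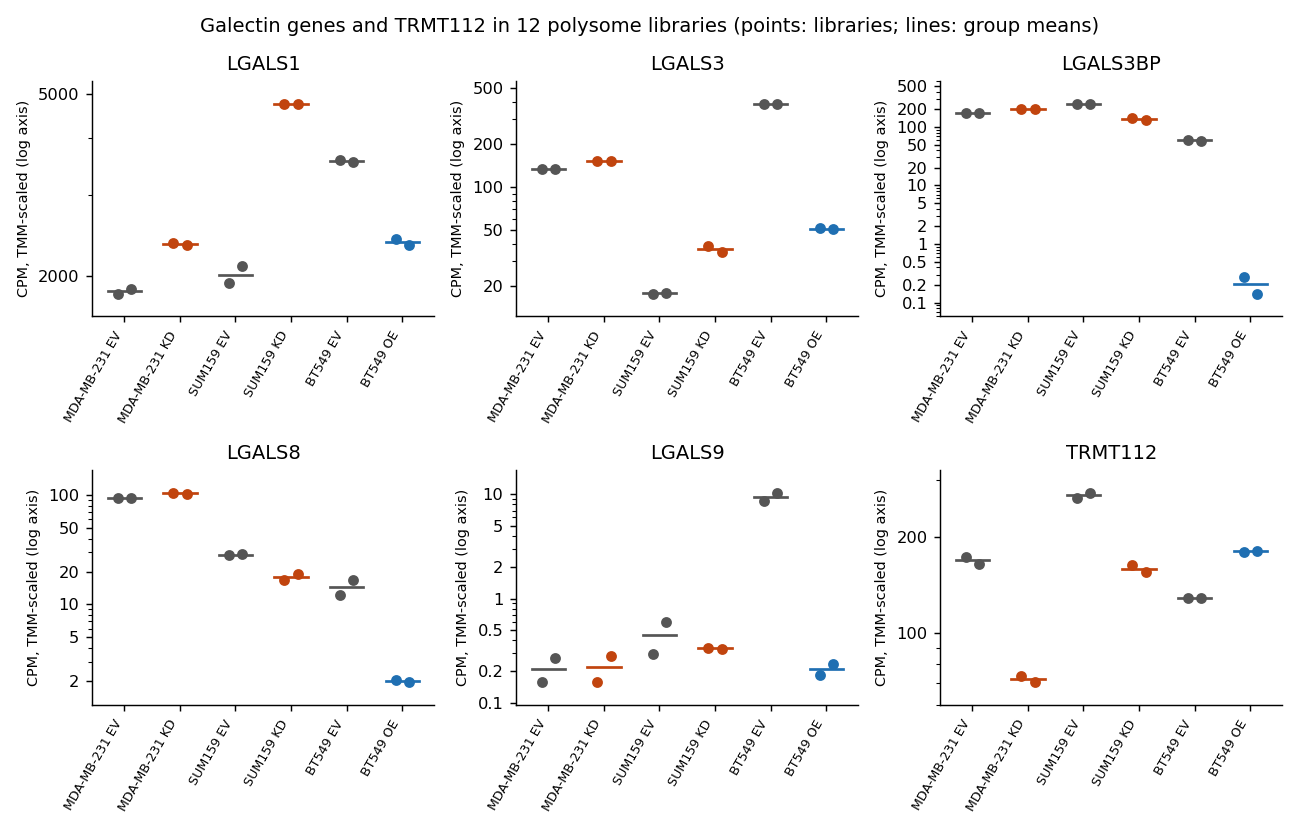
TMM-scaled CPM (log axis, a separate scale in each panel) of the 5 members and TRMT112 in the 6 groups on the horizontal axis; points are the 2 libraries of a group, lines are group means, grey is EV, orange is KD and blue is OE. LGALS1 and LGALS3 lie above EV in both KD lines and below it in BT549 OE, and LGALS3BP falls to 0.210 CPM in BT549 OE.

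LGALS3BP, the glycoprotein ligand of galectins, had the widest range of the members and opposite differences in the KD lines. The gene lies on chromosome 17 (78971238 to 78979947, minus strand), and LGALS3BP-201, with 6 exons and 585 codons, took 86.8% of its counts. In MDA-MB-231 it had 172.3 and 172.8 CPM in EV and 205.6 and 201.1 in KD, so the KD libraries were higher. In SUM159 it had 247.7 and 243.7 CPM in EV and 141.5 and 130.5 in KD, so the KD libraries were lower. The log2 fold changes were 0.24 ± 0.04 and -0.85 ± 0.04. In BT549 the EV libraries had 1293 and 1252 counts, or 59.2 and 58.0 CPM. The OE libraries had 6 and 3 counts, or 0.278 and 0.142 CPM. The fitted log2 fold change in BT549 was -8.08 ± 0.15, a value that depends on the model's treatment of low counts. From the summed counts of 2545 in EV and 9 in OE, the EV level was 278 times the OE level, with an exact 95% interval of 146 to 609 that covers counting error only. Among the 16538 tested genes this fitted change stood at percentile 0.496, counted from the most negative.

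The transcripts of LGALS3BP did not move alike in SUM159. LGALS3BP-201 had 223.2 and 219.8 CPM in EV and 104.6 and 97.5 in KD. LGALS3BP-218, a protein-coding transcript of 205 codons, had 6.98 and 8.80 CPM in EV and 19.1 and 18.1 in KD. LGALS3BP-202, of 210 codons, had 8.15 and 6.99 CPM in EV and 10.8 and 9.75 in KD. The libraries of EV and KD did not overlap for any of these 3 transcripts, and the long coding transcript was lower in KD while the short coding ones were higher. The retained-intron transcript LGALS3BP-211 had 1.86 and 2.63 CPM in EV and 4.30 and 2.83 in KD, and LGALS3BP-208, annotated for nonsense-mediated decay, had 4.99 and 3.21 in EV and 1.19 and 1.25 in KD. LGALS3BP-201 took 90.1% and 90.2% of the counts of its gene in SUM159 EV against 73.9% and 74.7% in SUM159 KD. In MDA-MB-231, LGALS3BP-218 had 9.83 and 8.15 CPM in EV and 14.9 and 12.6 in KD, also without overlap, while LGALS3BP-202 had 4.38 and 4.53 in EV and 4.55 and 4.53 in KD, with overlap. For LGALS3BP-201, MDA-MB-231 gave shares of 89.5% and 90.4% for EV against 88.2% and 89.6% for KD, and there the groups overlapped. Counts of overlapping transcripts are estimates that divide shared reads, so a shift between transcripts is less certain than the gene total.

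**Figure D2:**
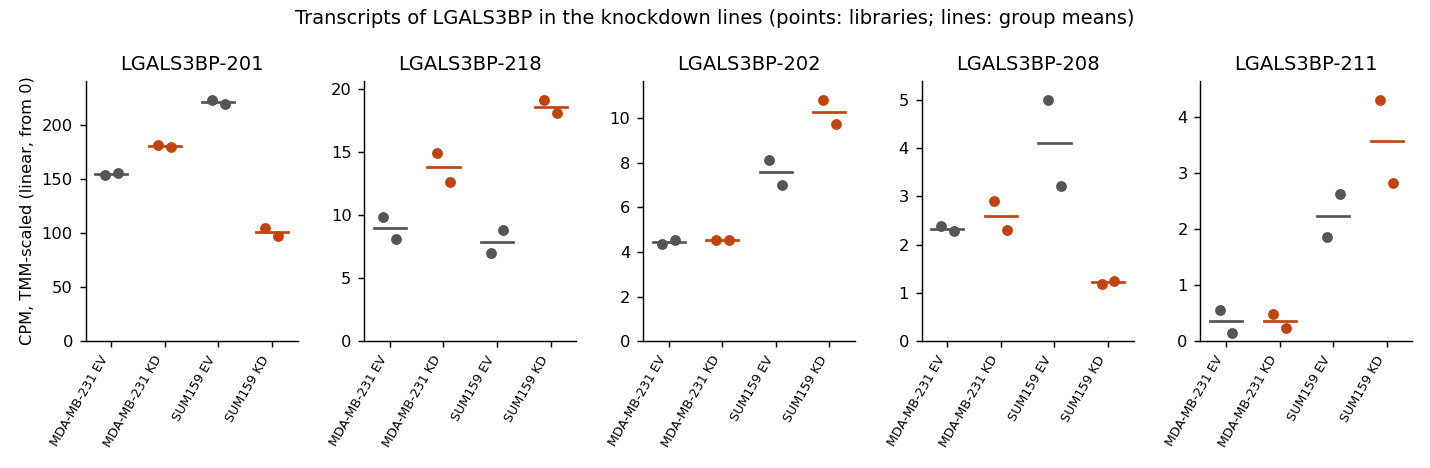
TMM-scaled CPM (linear axis from 0, a separate scale in each panel) of 5 LGALS3BP transcripts in MDA-MB-231 and SUM159 EV (grey) and KD (orange); points are the 2 libraries of a group and lines are group means. In SUM159, LGALS3BP-201 is lower in KD while LGALS3BP-218 and LGALS3BP-202 are higher, and in MDA-MB-231 both LGALS3BP-201 and LGALS3BP-218 are higher.

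LGALS8, whose protein is known for recognising damaged vesicles and recruiting the autophagy receptor CALCOCO2, was highest in MDA-MB-231. The gene lies on chromosome 1 (236518000 to 236552981, plus strand). It had 94.9 and 95.1 CPM in MDA-MB-231 EV and 105.7 and 103.4 in KD. In SUM159 it had 28.2 and 28.9 CPM in EV and 16.7 and 19.1 in KD. In BT549 it had 12.3 and 16.6 CPM in EV and 2.04 and 1.94 in OE, the latter from 44 and 41 counts. The KD libraries were above EV in MDA-MB-231 and below EV in SUM159, and the OE libraries were below EV, in each case without overlap. The log2 fold changes were 0.14 ± 0.06 in MDA-MB-231 KD, -0.67 ± 0.09 in SUM159 KD and -2.85 ± 0.17 in BT549 OE.

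Galectin-8 exists with a short and a long linker, and a single exon separates these forms in the annotation. It is shown because the 4 transcripts of 359 codons hold it and the 3 transcripts of 317 codons lack it. The exon covers 126 bases, or 42 codons, of GRCh38.
LGALS8 linker exon, chr1:236542915-236543040, plus strand: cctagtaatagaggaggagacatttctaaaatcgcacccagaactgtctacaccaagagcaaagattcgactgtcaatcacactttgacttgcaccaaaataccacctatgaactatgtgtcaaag
The long form took 55.5% and 51.7% of the counts of both forms in MDA-MB-231 EV and 49.0% and 46.9% in KD. These libraries did not overlap, although the EV libraries differed from each other by more than the gap between the groups. The SUM159 shares were 48.9% and 27.2% for EV against 19.2% and 38.6% for KD. The BT549 shares were 40.3% and 32.5% for EV against 25.2% and 44.7% for OE. In those lines the groups overlapped, and no difference between the forms could be seen beyond the spread. No LGALS8 transcript dominated. The one with the most counts, LGALS8-203, took 25.9% of them.

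LGALS9, which encodes galectin-9, had more than 14 counts in the BT549 EV libraries alone. The gene lies on chromosome 17 (27629798 to 27649560, plus strand). The BT549 EV libraries had 187 and 225 counts, or 8.56 and 10.4 CPM, and the OE libraries had 4 and 5 counts, or 0.185 and 0.237 CPM. The fitted log2 fold change was -5.46 ± 0.39. From the summed counts of 412 and 9, the EV level was 45.0 times the OE level. The exact 95% interval of 23.5 to 99.2 covers counting error only, not variation between libraries. In the KD lines no library had more than 14 counts. MDA-MB-231 had 4 and 7 counts in EV and 4 and 7 in KD, and SUM159 had 7 and 14 in EV and 8 and 9 in KD. The groups overlapped in both lines, and no difference was detectable at this depth. Its lower level in BT549 OE was favoured by the filter on low counts, which LGALS9 passed only through its BT549 EV libraries. In these, the counts were spread over LGALS9-202 (246 codons; 63.5 and 73.2 expected counts), LGALS9-203 (355 codons; 60.5 and 91.8), LGALS9-205 (annotated for nonsense-mediated decay; 19.4 and 30.9) and a transcript with a retained intron (36.2 and 25.8). The paralogs LGALS9B and LGALS9C are nearly identical to LGALS9 and were not analysed here, so it cannot be told whether reads of theirs were counted under LGALS9.

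Because the levels are comparable between genes only per length, the make-up of the galectin pool was taken from TPM. LGALS1 supplied between 94.1% and 99.5% of the summed TPM of the 4 lectin genes in every library. The sum was 7574 ± 134 TPM in MDA-MB-231 EV against 8996 ± 6.35 in KD. In SUM159 it stood at 6900 ± 360 TPM for EV against 14917 ± 147 for KD, and in BT549 at 11247 ± 1.78 for EV against 7070 ± 19.7 for OE. LGALS3 supplied 5.59% and 5.67% of it in BT549 EV, its largest share, and 1.16% and 1.17% in OE. LGALS1 outnumbered LGALS3 by 25.0 ± 0.356 in MDA-MB-231 EV and 28.0 ± 0.0164 in KD. In SUM159 the ratio was 204 ± 11.3 in EV and 233 ± 15.9 in KD, where the lowest KD library (222) lay above the highest EV library (212). For BT549 the ratio stood at 16.7 ± 0.186 with EV against 84.5 ± 0.524 with OE. The ratio differed more between the lines than between EV and KD within a line, and in BT549 the OE libraries stood well apart from EV. In these bulk libraries fewer cells making an mRNA, less of that mRNA per cell and fewer ribosomes on it cannot be told apart, since unfractionated RNA is not analysed here.

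**Figure D3:**
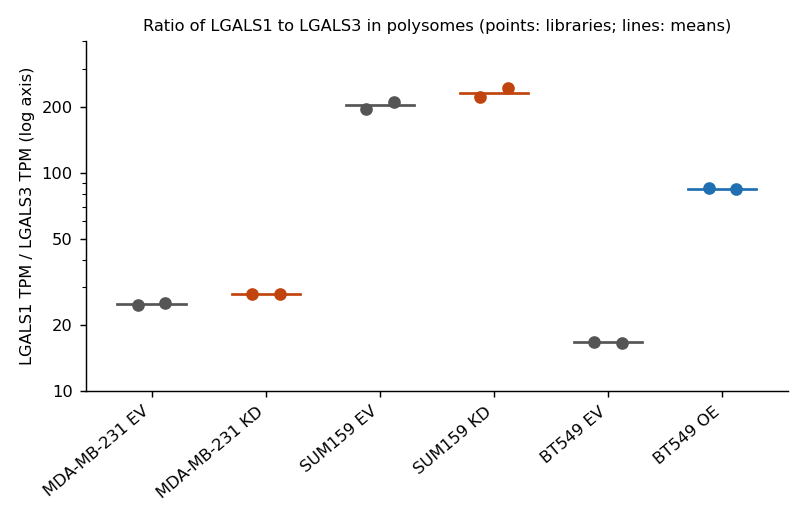
Ratio of LGALS1 TPM to LGALS3 TPM (log axis) in the 6 groups; points are the 2 libraries of a group, lines are group means, grey is EV, orange is KD and blue is OE. The ratio is highest in SUM159 (204 and 233 as group means) and rises from 16.7 in BT549 EV to 84.5 in OE.

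The members' fitted fold changes were set beside those of all 16538 genes tested with edgeR, as percentiles counted from the most negative. In MDA-MB-231 KD they stood between percentile 56.3 for LGALS9 and 84.3 for LGALS1. In SUM159 KD they ran from 13.7 for LGALS3BP and 18.6 for LGALS8 to 89.6 for LGALS3 and 91.6 for LGALS1. In BT549 OE, LGALS1 stood at 27.4, within the middle of all genes, and the other members between 0.496 and 5.85. The median log2 fold change of the members was 0.18 in MDA-MB-231 KD, -0.41 in SUM159 KD and -2.92 in BT549 OE, against 0, 0 and 0.02 over all genes tested. The SUM159 median was the value of LGALS9 itself, which rests on 7 to 14 counts a library and ran from -0.82 to 0.16 with single libraries left out. The other 4 members lay on both sides of 0 there, and without LGALS9 the medians were 0.21, 0.19 and -2.89.

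Over all genes tested, 21.2% were called higher and 16.5% lower in MDA-MB-231 KD at an adjusted p under 0.05. In SUM159 KD the shares were 28.6% and 31.4%, and in BT549 OE they were 35.6% and 35.0%. Scaling by library size alone moved the share of higher among all calls in MDA-MB-231 KD from 56.2% to 36.7%. With that scaling LGALS1, LGALS3, LGALS3BP and LGALS8 stayed above EV there, at 0.26, 0.09, 0.15 and 0.05. The KD effect differed between MDA-MB-231 and SUM159 for 50.9% of all genes tested.

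**Figure D4:**
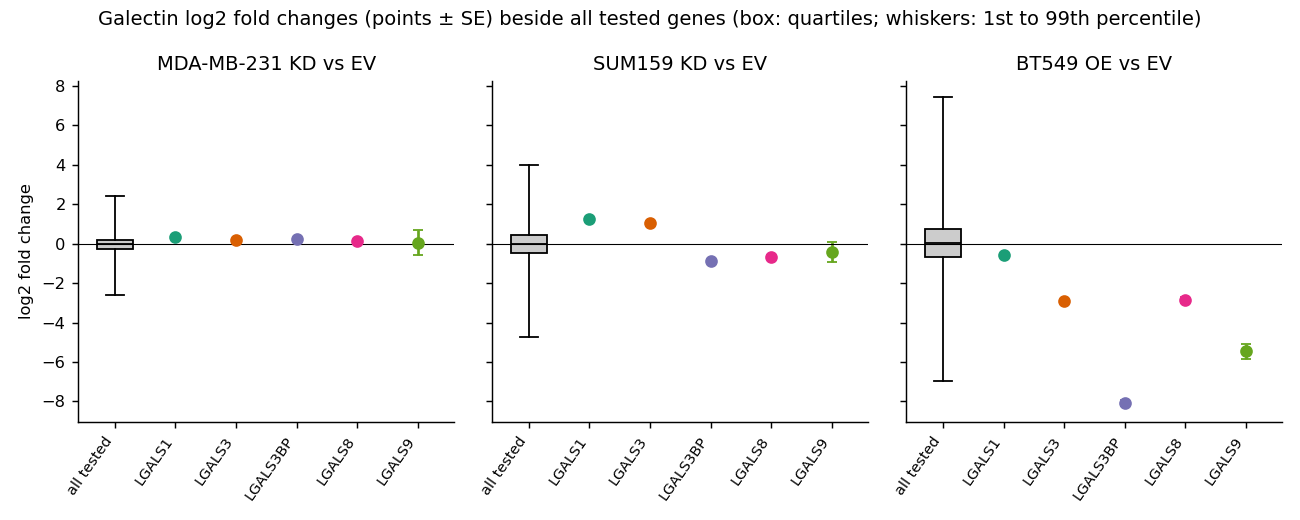
Fitted log2 fold changes of the 5 members (points, ± SE) in the 3 comparisons beside all tested genes (box: quartiles with the median; whiskers: percentiles 1 and 99). In BT549 OE the points run from -0.59 for LGALS1 to -8.08 for LGALS3BP, and in MDA-MB-231 KD they all lie between 0.04 and 0.35, where LGALS9 changed sign with library-size scaling, to -0.05.

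The 3 genes whose 6 group levels lay closest to those of each member were found among 12581 tested genes, by the Euclidean distance between group means of log2 CPM centred on each gene's own mean. For LGALS1 these were ZNF497, ARPC5 and FOXP4, at distances of 0.302, 0.314 and 0.340. For LGALS3 they were RAET1G, HMGA2 and COLGALT2, at 0.812, 0.873 and 1.02. For LGALS3BP they were PPM1K, CASP4 and PKP3, at 1.34, 1.47 and 1.57, and for LGALS8 they were CDCA7L, ARHGEF26 and APOBEC3F, at 0.769, 0.854 and 0.931. For LGALS9 they were LY6E, the unnamed gene ENSG00000287158 and IFI35, at 0.620, 0.785 and 0.930. Distances over 6 group means are a description, and the genes share the same 12 libraries.

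Of 13 other genes of the galectin family, 10 were not analysed here, LGALS2 had at most 4 counts and LGALS4 at most 1 count in a library. LGALSL, a galectin-related gene, was the single one tested. It had 755 and 750 counts in SUM159 EV and 1001 and 1146 in KD, and it rose there by a log2 fold change of 0.40 ± 0.07 (edgeR adjusted p = 6.18e-05). Its log2 fold change was -0.16 ± 0.08 in MDA-MB-231 KD (edgeR adjusted p = 0.117; 0.0144 with library-size scaling and 0.046 with each line fitted alone) and 0.08 ± 0.19 in BT549 OE (edgeR adjusted p = 0.710).

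Galectins bind best to branched N-glycans extended with galactose and N-acetylglucosamine repeats, so a list of genes for building such chains was counted next. It also holds genes of O-glycans and glycolipids, and MGAT3, which limits branching and was called higher in BT549 OE (8.15). Of 28 genes of this list tested, 9 (32.1%) were called higher and 3 (10.7%) lower in MDA-MB-231 KD, against 21.2% and 16.5% of all genes tested. In SUM159 KD, 13 (46.4%) were higher and 1 (3.57%) lower, against 28.6% and 31.4%, and in BT549 OE, 8 (28.6%) and 15 (53.6%), against 35.6% and 35.0%. Their median log2 fold changes were 0.00, 0.33 and -0.24. MGAT5, the branching enzyme best known for making galectin-3 ligands, rose by 0.34 ± 0.05 in MDA-MB-231 KD (edgeR adjusted p = 3.46e-06) and by 0.34 ± 0.05 in SUM159 KD (1.16e-06), and fell by 1.01 ± 0.06 in BT549 OE (3.08e-13). MGAT5 thus showed the same directions as LGALS1 and LGALS3 in the 3 comparisons. The share of all genes with these directions is not given here, and no link was tested. GCNT1, which starts branches on O-glycans, rose by 0.57 ± 0.07 in MDA-MB-231 KD and 1.94 ± 0.07 in SUM159 KD and fell by 1.23 ± 0.13 in BT549 OE (edgeR adjusted p = 1.56e-06, 1.28e-16 and 7.59e-09). FUT8, the core fucosyltransferase, fell by 0.31 ± 0.05 in MDA-MB-231 KD and rose by 0.44 ± 0.06 in SUM159 KD (edgeR adjusted p = 2.64e-05 and 8.32e-07). From the most abundant transcript alone, the calls of GCNT1 in MDA-MB-231 KD (0.72, edgeR adjusted p = 0.0937) and FUT8 in SUM159 KD (0.28, edgeR adjusted p = 0.137) were lost. B4GALT6, a galactosyltransferase that acts mainly on glycolipids, had 123 and 92 counts in BT549 EV and 0 and 2 in OE, and MAN1C1, a Golgi mannosidase, had 2 and 3 counts in EV and 335 and 284 in OE.

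Capping of galactose, by sialic acid in particular, can block galectin binding. The list counted here also holds the sialidases NEU1 and NEU3, which remove sialic acid. NEU1 was among the genes called higher in both KD lines (0.23 and 1.17) and lower in BT549 OE (-2.48). NEU3 was among those called lower in SUM159 KD (-0.76). Of 23 genes of this list tested, 8 (34.8%) were called higher and 3 (13.0%) lower in MDA-MB-231 KD, against 21.2% and 16.5% of all genes tested. In SUM159 KD, 11 (47.8%) were higher and 5 (21.7%) lower, against 28.6% and 31.4%, and in BT549 OE, 10 (43.5%) and 6 (26.1%), against 35.6% and 35.0%. ST6GAL1, whose α2,6-linked sialic acid is known to block galectin-1 and galectin-3, had 899 and 1014 counts in SUM159 EV and 36 and 43 in KD, a fall of 4.71 ± 0.13 (edgeR adjusted p = 7.71e-19). In BT549 it had 14 and 13 counts in EV and 349 and 295 in OE, a rise of 4.59 ± 0.19 (edgeR adjusted p = 3.12e-16). In MDA-MB-231 KD its log2 fold change was 0.20 ± 0.11 (edgeR adjusted p = 0.173). Relative to the EV libraries of the same line, ST6GAL1 was lower in SUM159 KD, where LGALS1 and LGALS3 were higher, and higher in BT549 OE, where they were lower. In MDA-MB-231 KD, where LGALS1 and LGALS3 were also higher, ST6GAL1 was not called. More genes of this list were called higher than lower in SUM159 KD, unlike ST6GAL1. A link between these differences was not tested. ST6GALNAC5, a sialyltransferase of gangliosides, rose by 0.82 ± 0.10 in MDA-MB-231 KD and by 4.45 ± 0.19 in SUM159 KD and fell by 1.29 ± 0.14 in BT549 OE (edgeR adjusted p = 5.17e-07, 1.25e-15 and 1.31e-08). FUT1, a fucosyltransferase of the H antigen, had 101 and 111 counts in SUM159 EV and 2 and 1 in KD. ST6GALNAC2 had 11 and 7 counts in BT549 EV and 0 in both OE libraries, and ST6GALNAC3 rose there by 2.14 ± 0.10 (edgeR adjusted p = 4.32e-15).

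Of 32 glycoprotein counter-receptors of galectins tested, 15 (46.9%) were called higher and 5 (15.6%) lower in MDA-MB-231 KD, against 21.2% and 16.5% of all genes tested. In SUM159 KD, 10 (31.2%) were higher and 13 (40.6%) lower, against 28.6% and 31.4%, and in BT549 OE, 13 (40.6%) and 17 (53.1%), against 35.6% and 35.0%. MCAM, a melanoma adhesion molecule that binds galectins and LGALS3BP, fell by 0.66 ± 0.04 in MDA-MB-231 KD and rose by 3.42 ± 0.04 in SUM159 KD and by 4.46 ± 0.05 in BT549 OE (edgeR adjusted p = 1.45e-12, 5.03e-25 and 2.25e-26). ITGB4, the laminin-binding integrin subunit β4, rose by 0.25 ± 0.04 in MDA-MB-231 KD and fell by 3.73 ± 0.06 in SUM159 KD (edgeR adjusted p = 3.64e-05 and 1.05e-22), and in BT549 it had 615 and 597 counts in EV and 3 and 0 in OE. THY1, a glycoprotein of mesenchymal cells, rose by 3.42 ± 0.04 in SUM159 KD and by 2.57 ± 0.03 in BT549 OE (edgeR adjusted p = 5.77e-24 and 4.08e-25), and no MDA-MB-231 library had more than 2 counts of it. CD40, a TNF receptor family member, rose by 0.89 ± 0.08 in MDA-MB-231 KD and fell by 2.45 ± 0.18 in SUM159 KD (edgeR adjusted p = 1.66e-08 and 6.02e-11), and it had 0 counts in both BT549 EV libraries and 66 and 57 in OE. From the most abundant transcript alone, the MDA-MB-231 calls of ITGB4 (0.19, edgeR adjusted p = 0.323) and CD40 (1.22, edgeR adjusted p = 0.137) were lost. HAVCR2, the TIM-3 receptor of galectin-9, had at most 5 counts in any library and was not tested.

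Of 29 tested genes of the damaged-vesicle and lysosome response, where galectin-3 and galectin-8 act, 11 (37.9%) were called higher and 4 (13.8%) lower in MDA-MB-231 KD, against 21.2% and 16.5% of all genes tested. In SUM159 KD, 11 (37.9%) were higher and 14 (48.3%) lower, against 28.6% and 31.4%, and in BT549 OE, 9 (31.0%) and 19 (65.5%), against 35.6% and 35.0%. CALCOCO2, the autophagy receptor that galectin-8 recruits, fell by 1.42 ± 0.06 in SUM159 KD and by 1.49 ± 0.06 in BT549 OE (edgeR adjusted p = 4.19e-16 and 9.07e-17). LGALS8 was lower in the same 2 groups, and a link was not tested. In MDA-MB-231 KD the log2 fold change of CALCOCO2 was 0.02 ± 0.05 (edgeR adjusted p = 0.779), and with library-size scaling its sign turned, to -0.07. TRIM16, which acts with galectin-3 on damaged endomembranes, rose by 0.51 ± 0.05 in MDA-MB-231 KD and fell by 0.83 ± 0.05 in SUM159 KD and by 0.41 ± 0.06 in BT549 OE (edgeR adjusted p = 7.57e-09, 2.02e-12 and 6.73e-07), but its most abundant transcript rose in BT549 OE, by 1.18, and in MDA-MB-231 KD gave 0.41 (edgeR adjusted p = 0.243). OPTN, an autophagy receptor, rose by 0.71 ± 0.04 and 0.55 ± 0.04 in the KD lines and fell by 1.95 ± 0.04 in BT549 OE (edgeR adjusted p = 6.66e-12, 6.44e-11 and 2.63e-22). RRAGA and RRAGB, paralogous GTPases of lysosomal mTORC1 signalling whose reads may be shared, moved in opposite directions in each KD line. RRAGA rose by 0.41 ± 0.06 in MDA-MB-231 KD and fell by 1.77 ± 0.08 in SUM159 KD, and RRAGB fell by 0.33 ± 0.09 and rose by 1.00 ± 0.12 (edgeR adjusted p = 1.68e-05, 8.54e-15, 0.00557 and 1.25e-07). In BT549 OE both fell, RRAGA by 1.07 ± 0.04 and RRAGB by 1.49 ± 0.12 (edgeR adjusted p = 2.24e-16 and 4.54e-11). The RRAGB call in MDA-MB-231 was lost without EV library 2 (-0.30, edgeR adjusted p = 0.0561) or without KD library 1 (-0.27, edgeR adjusted p = 0.0815), and from its most abundant transcript alone (-0.36, edgeR adjusted p = 0.127). GABARAPL2, an ATG8 family gene, rose by 1.33 ± 0.05 in BT549 OE (edgeR adjusted p = 1.62e-16). PRKAA2, a catalytic subunit of AMP kinase, had 25 and 32 counts in BT549 EV and 0 in both OE libraries.

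**Figure D5:**
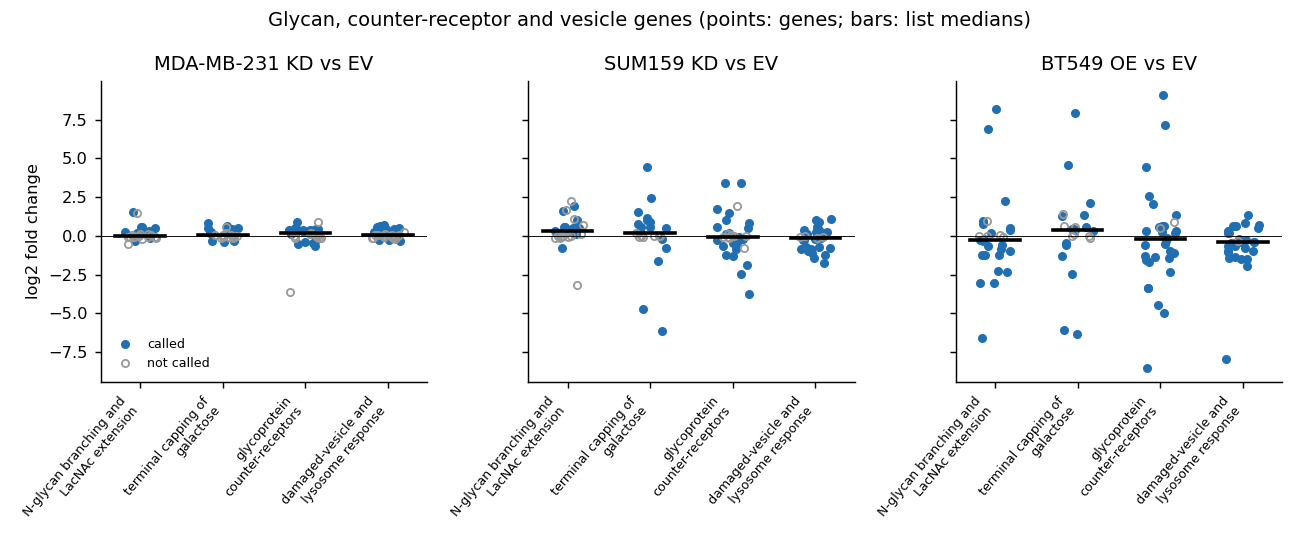
Fitted log2 fold changes (vertical axis) of the tested genes of 4 lists in the 3 comparisons; filled points passed the edgeR test at an adjusted p under 0.05, open points did not, and bars are list medians. In BT549 OE, 19 of 29 vesicle and lysosome genes were called lower and 9 higher. Of 28 genes of the glycan-building list, 15 were called lower and 8 higher, against 35.0% lower and 35.6% higher of all genes tested.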

How the data were processed

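Per the study's methods, the authors used Trimmomatic for trimming, HISAT2 for alignment (GRCh38), SAMtools for duplicate removal and DESeq2 in Partek for testing. The labels describe poly(A) selection with a NEBNext kit, whereas the methods describe rRNA depletion with a stranded TruSeq kit. This conflict was not resolved, and whether counting used strand is not given in the sources used here. The table the authors deposited holds expected counts per Ensembl transcript, not normalized, from a counting tool not given in the sources used here. The 8 MDA-MB-231 and SUM159 columns, recorded in the same unit as the BT549 columns, hold a missing mark in 5.08% of rows, counted as 0. No transcript of a member carried one. All 12 columns were used, leaving 0 unused.

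Of 201932 transcripts, 79.6% matched GENCODE 44. They were summed per symbol and rounded. CPM used TMM factors. TPM used annotated transcript lengths. Genes that passed filterByExpr (16538) were fitted in edgeR 4.0.16 (R 4.3.3) with a mean for each of the 6 groups (residual degrees of freedom, 6) and tested by quasi-likelihood with Benjamini-Hochberg adjustment over all of them. The fits were tested on simulated data. Alternatives were other scalings, filters and samples, a replicate block and DESeq2 1.42.0. Python 3.11.15 prepared the tables.

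The members and all lists were chosen with earlier results of these data known. Genes named from a list were those called with the largest fold change in each direction and comparison, with a mean of at least 50 scaled counts, plus MGAT5, ST6GAL1, HAVCR2, CALCOCO2, TRIM16 and TRMT112. For each member the 3 genes with the closest pattern were named.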

Additional observations from a re-analysis of the deposited data

Results flagged for a closer look

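LGALS3BP and LGALS8 differed from EV in opposite directions in the KD lines, with no overlap of libraries, a weak criterion with 2 libraries in each group. The log2 fold change of LGALS3BP, with its SE, was 0.24 ± 0.04 in MDA-MB-231 KD and -0.85 ± 0.04 in SUM159 KD. That of LGALS8 was 0.14 ± 0.06 and -0.67 ± 0.09, and with library-size scaling the LGALS8 values were 0.05 and -0.71. These differences between the lines were not tested, because the members were chosen with their values known.

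Of 22 named list genes, 19 had a KD effect that differed between MDA-MB-231 and SUM159 in a test of the difference itself (edgeR quasi-likelihood, adjusted over all genes tested), against 50.9% of all genes. Most of these genes were named for a large fold change in one comparison, which favours such a difference, so nothing is read from the count. Values are log2, MDA-MB-231 minus SUM159. Among the glycan-building genes the difference was 0.73 for B4GALT6, -0.75 for FUT8 and -1.37 for GCNT1. Among the capping genes it was 4.91 for ST6GAL1, 6.04 for FUT1, -1.93 for ST6GALNAC2 and -3.63 for ST6GALNAC5, where FUT1 in SUM159 KD rests on 2 and 1 counts. Among the counter-receptors it was 3.34 for CD40, 3.98 for ITGB4, -4.07 for MCAM and -7.02 for THY1, and THY1 had at most 2 counts in any MDA-MB-231 library. Among the vesicle and lysosome genes it was 1.44 for CALCOCO2, 1.34 for TRIM16, 0.16 for OPTN, 2.18 for RRAGA, -1.34 for RRAGB, -0.28 for GABARAPL2 and -1.27 for PRKAA2. For LGALSL it was -0.56. The OPTN difference no longer passed under RLE or library-size scaling, in DESeq2, with the higher count filter, or without any of 4 single libraries. The GCNT1 difference no longer passed from the most abundant transcript (-0.95, edgeR adjusted p = 0.0823). Of these 19 genes, 7 passed the test in opposite directions in the KD lines: CD40, FUT8, ITGB4, MCAM, RRAGA, RRAGB and TRIM16. From the most abundant transcript alone, 1 of the opposed calls was lost for CD40, ITGB4, RRAGB and TRIM16 in MDA-MB-231 (edgeR adjusted p = 0.137, 0.323, 0.127 and 0.243) and for FUT8 in SUM159 (0.137), and the RRAGB call in MDA-MB-231 was also lost without EV library 2 (0.0561) or KD library 1 (0.0815).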

How the results depend on the processing

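Counts of called genes and list genes stayed within 1.5 times their reported value under every alternative run. LGALS1, LGALS3, LGALS3BP and LGALS8 kept the direction of their fold changes under every alternative run. LGALS9 in MDA-MB-231 KD, at up to 7 counts, changed sign with its most abundant transcript (-3.99) or library size alone (-0.0519), and ran from -0.43 to 0.46 with single libraries left out, and in SUM159 KD from -0.82 to 0.16. Left-out libraries also turned CALCOCO2 in MDA-MB-231 KD (-0.0011 to 0.0458; -0.069 by library size), LGALSL in BT549 OE (-0.16 to 0.35) and the MGAT5 difference between KD lines (-0.0234 to 0.0422). That MGAT5 difference, near 0, was -0.0291 with RLE and with DESeq2, -0.0494 by library size, -0.0355 with the higher count filter and -0.0112 with the most abundant transcript, which also gave -0.0842 for the OPTN difference and 1.18 for TRIM16 in BT549 OE. The cause was not tested. Replicate numbers did not pair the libraries (correlations of deviations 0.003, -0.03 and 0.016). The fit with a replicate block called 6217, 9831 and 11581 genes, against 6240, 9933 and 11677. With 2 libraries a group and at most 14 counts of LGALS9 per KD-line library, small differences of low genes are beyond this depth.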
